A study of Mus musculus with 2 samples.

Results

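The genes described here are 10 genes of plasma cell fate, of the plasma cell surface and of its secreted product: *Prdm1*, *Irf4*, *Bach2*, *Sdc1*, *Spn*, *Jchain*, *Prg2*, *Pls1*, *Cacna1h* and *Enpp1*. They were taken by symbol from the 19960 genes of the files and followed through B2, B1 and plasma cells of the mouse omentum, IgM and class-switched, cycling and not. Cells of the omentum, called omental leukocytes in the series' design, were captured in droplets, and each transcript molecule was counted by its unique molecular identifier (UMI). The study compared WT mice with *Postn*-DTR mice, both injected with diphtheria toxin (DT) and examined 5 days later. *Postn*-DTR mice were made by CRISPR in C57BL/6 zygotes and carry the DT receptor at the *Postn* locus, so that cells using this locus are sensitive to the toxin. Each group is 1 library of pooled mice. There are no replicates, so no test between groups was possible and every 95% interval given here (exact, Poisson or Clopper-Pearson) covers counting error only.

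A B cell becomes a plasma cell by silencing the B cell programme and turning to the secretion of antibody. *Prdm1* encodes BLIMP-1, a repressor needed for this step, *Irf4* a transcription factor whose high level drives it, and *Bach2* a repressor that holds B cells back from it and acts on *Prdm1*. The B cells of the omentum and peritoneum comprise conventional B2 cells and self-renewing B1 cells, and B1 cells are a main source of natural IgM in the body cavities.

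The WT library held 8654 cells and 80152201 UMIs and the *Postn*-DTR library 5727 cells and 81011216 UMIs after filters on cells, with medians of 5635 and 8472 UMIs a cell. 65 cell barcodes occurred in both libraries. *Postn* UMIs were seen in 9 of 41 stromal cells of WT and in 4 of 18 of *Postn*-DTR, too few to check the labels. Clusters were made without the 10 genes and named from marker genes. The B2 B-like cluster met 6 of 6 B-like markers and all 6 B2 markers, the B1 B-like cluster 6 of 6 B-like markers and 4 of 9 B1 markers, and the 5 plasma-like clusters 7 to 9 of 9 markers. WT had 1588 and *Postn*-DTR 449 B2 B-like cells, followed by 999 and 473 B1 B-like cells, and 93 and 18 cycling B-like cells. Plasma-like cells outside the cycling cluster were divided by the heavy-chain constant region with most UMIs into 473 and 1726 IgM and 91 and 284 switched cells, and the cycling cluster held 46 and 180 plasma-like cells. The median depth was 4508.5 and 3394 UMIs in B2 B-like cells but 28001 and 23189 in IgM plasma-like cells. Immunoglobulin genes took a median of 55.9% and 52.9% of the UMIs of a plasma-like cell.

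A level below is the mean over cells of the UMIs of a gene per 10000 UMIs of the cell. With all UMIs as the total, the median log2 ratio of all genes between plasma-like and B2 B-like cells was -1.13 in WT and -1.05 in *Postn*-DTR, and -0.09 and -0.08 when immunoglobulin genes were left out of the total. Both scales are therefore given where it matters. A gene was called higher or lower at a 2-fold or larger difference when it had at least 50 UMIs over both classes.

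Of the 10 genes, 8 were called higher in plasma-like than in B2 B-like cells of WT (all but *Irf4* and *Bach2*) and 1 lower (*Bach2*). Over all genes tested, 9.51% were called higher and 55.5% lower. In *Postn*-DTR 9 were higher and 1, again *Bach2*, was lower, against 10.7% and 51.8% of all genes. The median log2 ratio of the 10 genes was 4.93 and 3.53. The genes were chosen with earlier results of these data known, so these counts describe the list and do not test it. The same 8 genes were called higher in both libraries, and with immunoglobulin genes left out of the total *Irf4* joined them in WT as well.

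**Figure D1:**
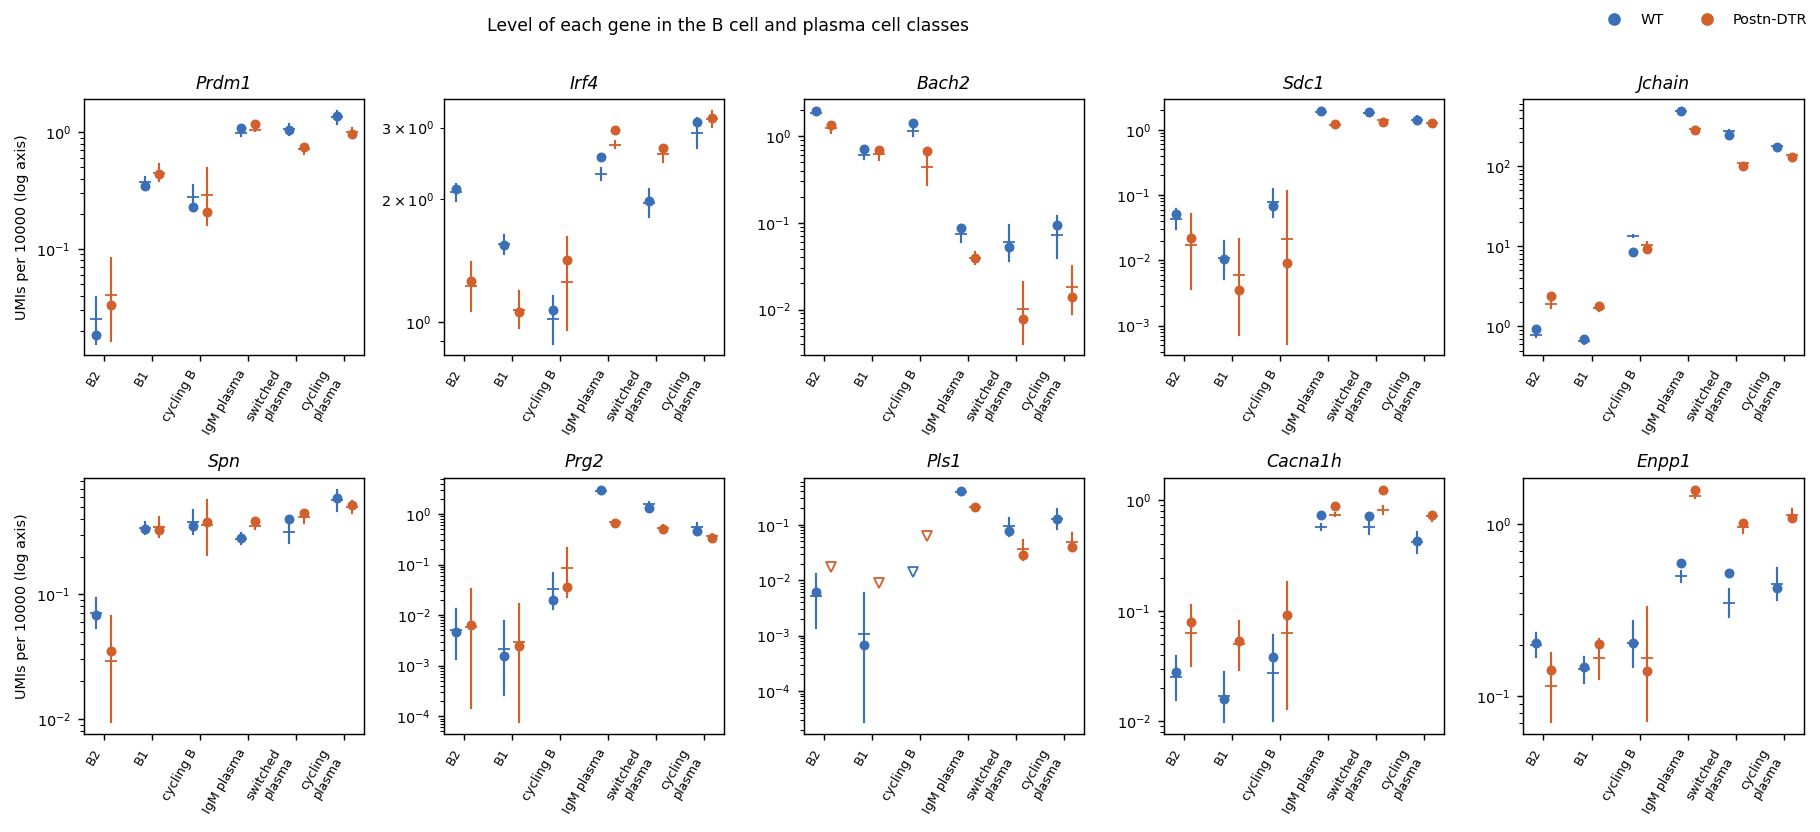
Level of each gene (UMIs per 10000, log axis) in the 6 B cell and plasma cell classes of WT (blue) and *Postn*-DTR (orange). Dots are means over cells, ticks are summed UMIs of the gene over all UMIs of the class with their 95% counting interval as a bar, and open triangles mark the limit that 3 counts allow where no UMI was seen, as for *Pls1* in cycling B-like cells. *Bach2* runs from 1.94 in WT B2 B-like cells down to 0.00785 in switched plasma-like cells of *Postn*-DTR, and *Prdm1* the other way.

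Of the regulators, *Prdm1* (ENSMUSG00000038151, chromosome 10, 44437177 to 44528501, GRCm38) was nearly absent from B2 B-like cells, with 20 UMIs in WT and 7 in *Postn*-DTR. Its level there was 0.0183 and 0.0331, against 0.348 and 0.439 in B1 B-like cells, 1.09 and 1.18 in IgM plasma-like, 1.05 and 0.748 in switched plasma-like and 1.37 and 0.957 in cycling plasma-like cells. Plasma-like cells as a whole stood 60.5-fold (WT) and 33.4-fold (*Postn*-DTR) above B2 B-like cells. On all UMIs the order in WT ran from cycling to IgM to switched plasma-like cells, then to B1, cycling B-like and B2 B-like cells. Neither IgM and switched plasma-like nor B1 and cycling B-like cells differed beyond their counting intervals. In *Postn*-DTR the order ran from IgM to cycling to switched plasma-like cells, the first pair not differing beyond theirs, and then as in WT. With immunoglobulin genes left out of the total, cycling cells were the lowest plasma-like class in both libraries. The levels were then 1.91 in cycling, 2.49 in IgM and 2.41 in switched plasma-like cells of WT. In *Postn*-DTR they were 1.45, 2.51 and 1.66. The place of the cycling class thus depended on the total.

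B1 B-like cells were an intermediate class for *Prdm1*. Their level was 19.0-fold (WT) and 13.3-fold (*Postn*-DTR) that of B2 B-like cells. On summed UMIs the log2 ratio of WT was 3.88 (3.23 to 4.61) and that of *Postn*-DTR 3.48 (2.41 to 4.82). Since B1 B-like cells were deeper (median 8809 against 4508.5 UMIs in WT), shares of cells with a UMI were compared after each cell had been thinned to 2000 UMIs, which left out 39 B2 and 15 B1 B-like cells of WT and 29 and 5 of *Postn*-DTR. A *Prdm1* UMI was then found in 6.81% of B1 B-like cells of WT (5.32 to 8.57) and 0.323% of B2 B-like cells (0.105 to 0.752), and in 8.12% (5.81 to 11.0) and 0.476% (0.0577 to 1.71) of *Postn*-DTR. Without thinning the shares were 17.7% and 1.07% in WT and 17.1% and 0.891% in *Postn*-DTR. For comparison, T-like cells (median depth 4650 and 4300 UMIs) held a *Prdm1* UMI in 2.04% of thinned cells of WT and 2.83% of *Postn*-DTR. Neutrophil-like cells (8919 and 3452.5 UMIs) held one in 0.435% and 0.952%. The share in B1 B-like cells was above both of these classes in each library. The share in B2 B-like cells was below that of T-like cells in each library. Its interval held the share of neutrophil-like cells in both, so these 2 classes could not be told apart. NK-like cells of WT, however, held one in 7.36% (4.90 to 10.5), at a level of 0.493. B1 B-like cells of WT did not stand above them.

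*Irf4* (ENSMUSG00000021356, chromosome 13, 30749226 to 30766976) was present in every class, and it differed least between B and plasma cells. Its level in WT was 2.12 in B2 B-like, 1.55 in B1 B-like, 2.53 in IgM plasma-like, 1.98 in switched plasma-like and 3.1 in cycling plasma-like cells. In *Postn*-DTR the levels were 1.26, 1.06, 2.95, 2.67 and 3.16. B2 and switched plasma-like cells of WT did not differ beyond their counting intervals, whereas in *Postn*-DTR all plasma-like classes lay above all B-like classes. The ratio of plasma-like to B2 B-like cells was 1.18-fold in WT and 2.33-fold in *Postn*-DTR on all UMIs. With immunoglobulin genes left out of the total the log2 ratio was 1.30 and 2.24, so the size of the *Irf4* difference depended on what the level was set against.

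*Bach2* (ENSMUSG00000040270, chromosome 4, 32238804 to 32586108) had the opposite pattern and was lower at each step from B2 to B1 to plasma-like cells in both libraries. Its level in WT was 1.94 in B2 B-like, 0.716 in B1 B-like, 0.0861 in IgM plasma-like, 0.0532 in switched plasma-like and 0.0955 in cycling plasma-like cells. In *Postn*-DTR it was 1.34, 0.692, 0.0393, 0.00785 and 0.0141. Plasma-like cells were 23.7-fold (WT) and 40.4-fold (*Postn*-DTR) below B2 B-like cells. After thinning, 30.6% of B2 B-like cells of WT (28.3 to 33.0) held a *Bach2* UMI, 11.4% of B1 B-like cells (9.46 to 13.5) and 1.07% of IgM plasma-like cells (0.349 to 2.48), the last near the 0.870% of neutrophil-like cells. In *Postn*-DTR the shares were 23.8%, 13% and 0.592%, with 0.794% in neutrophil-like cells. Without thinning they were 52.6%, 35.2% and 16.3% in WT and 35.2%, 30.7% and 7.59% in *Postn*-DTR. Thinned instead to 1000 UMIs outside immunoglobulin genes, 2.12% (WT, 1.02 to 3.87) and 0.937% (*Postn*-DTR, 0.536 to 1.52) of IgM plasma-like cells held a *Bach2* UMI. Neutrophil-like cells then held one in 0 of 240 cells of WT, which allows up to 1.25%, and in 0.263% (0.0318 to 0.946) of *Postn*-DTR. The nearness to neutrophil-like cells thus depended on the total.

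*Prdm1* and *Bach2* UMIs could be asked for in the same cells of the B1 class, where both genes were detected. Of the thinned B1 B-like cells with a *Prdm1* UMI, 4 of 67 (WT) and 4 of 38 (*Postn*-DTR) also held a *Bach2* UMI. The share was 5.97% against 11.8% of the cells without a *Prdm1* UMI in WT, and 10.5% against 13.3% in *Postn*-DTR. With 4 cells in each library this is a description of few cells.

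Among the surface genes, *Sdc1* (ENSMUSG00000020592, chromosome 12, 8771323 to 8793715) encodes syndecan-1 or CD138, the proteoglycan by which plasma cells are commonly recognised. Its level was 1.91 in IgM plasma-like cells of WT, 1.87 in switched and 1.41 in cycling plasma-like cells, and 1.23, 1.33 and 1.25 in *Postn*-DTR. B2 B-like cells had 0.0503 and 0.0219 (34 and 3 UMIs) and B1 B-like cells 0.0105 and 0.00353 (10 and 2 UMIs). *Sdc1* thus divided plasma-like from all B-like classes without a step at B1 cells, in contrast to *Prdm1*. The log2 ratio of plasma-like to B2 B-like cells was 5.21 in WT and 5.83 in *Postn*-DTR, the latter resting on 3 UMIs (interval on summed UMIs 4.6 to 8.42). After thinning, 32.3% of IgM plasma-like cells of WT (28.1 to 36.8) and 19.5% of those of *Postn*-DTR (17.7 to 21.5) held an *Sdc1* UMI, against 94.7% and 82.2% without thinning. T-like cells held one in 3.49% of thinned cells of WT and 1.74% of *Postn*-DTR (6.83% and 2.56% without thinning), B2 B-like cells in 0.904% and 0.476% (1.76% and 0.668%), and neutrophil-like cells in 0 of 230 cells, which allows a share of up to 1.3%, and in 0.635% (2.48% and 4.6%).

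*Spn* (ENSMUSG00000051457, chromosome 7, 127132232 to 127137823) encodes CD43, a sialoglycoprotein of leukocytes that is used to tell B1 from B2 cells. Its level was 0.0678 in B2 B-like cells of WT and 0.0352 in those of *Postn*-DTR, 0.333 and 0.325 in B1 B-like, 0.283 and 0.384 in IgM plasma-like, 0.402 and 0.449 in switched and 0.586 and 0.521 in cycling plasma-like cells. B1 B-like cells were 4.91-fold (WT) and 9.21-fold (*Postn*-DTR) above B2 B-like cells, the latter resting on 5 UMIs in B2 B-like cells (log2 on summed UMIs 3.58, 2.32 to 5.23). Plasma-like cells were 4.78-fold and 11.5-fold above B2 B-like cells. On all UMIs, B1 B-like and IgM plasma-like cells of WT did not differ beyond their counting intervals. On this scale the step of *Spn* lay between B2 B-like cells and all others. With immunoglobulin genes left out of the total, IgM plasma-like cells stood at 0.611 in WT and 0.808 in *Postn*-DTR. Immunoglobulin genes took a median of only 1.98% and 1.88% of the UMIs of a B1 B-like cell. The level of B1 B-like cells thus hardly depends on the total, and IgM plasma-like cells lay above them on that scale. *Spn* is no B lineage gene: T-like cells stood at 1.42 and 1.09.

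*Enpp1* and *Cacna1h* encode further membrane proteins, an ectoenzyme that hydrolyses extracellular nucleotides and the pore-forming subunit of a T-type calcium channel. *Cacna1h* (ENSMUSG00000024112, chromosome 17, 25374285 to 25433783) had a level of 0.735, 0.723 and 0.425 in IgM, switched and cycling plasma-like cells of WT and 0.897, 1.24 and 0.741 in *Postn*-DTR. On summed UMIs the switched cells of *Postn*-DTR stood at 0.816. The shallow cluster 22, which held 10 of these 284 cells, had a mean of 4.22 over its plasma-like cells of *Postn*-DTR. B2 B-like cells had 0.0281 and 0.0799 and B1 B-like cells 0.0158 and 0.0539, from 11 to 20 UMIs a class. Plasma-like cells were 25.2-fold (WT) and 11.6-fold (*Postn*-DTR) above B2 B-like cells.

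*Enpp1* (ENSMUSG00000037370, chromosome 10, 24637914 to 24712159) was the surface gene whose plasma-like cells stood least above B2 B-like cells in WT. Its level there was 0.204 in B2 B-like, 0.148 in B1 B-like, 0.591 in IgM, 0.518 in switched and 0.428 in cycling plasma-like cells. In *Postn*-DTR it was 0.141, 0.200, 1.58, 1.01 and 1.08. Plasma-like cells were 2.79-fold (WT) and 10.3-fold (*Postn*-DTR) above B2 B-like cells.

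**Figure D2:**
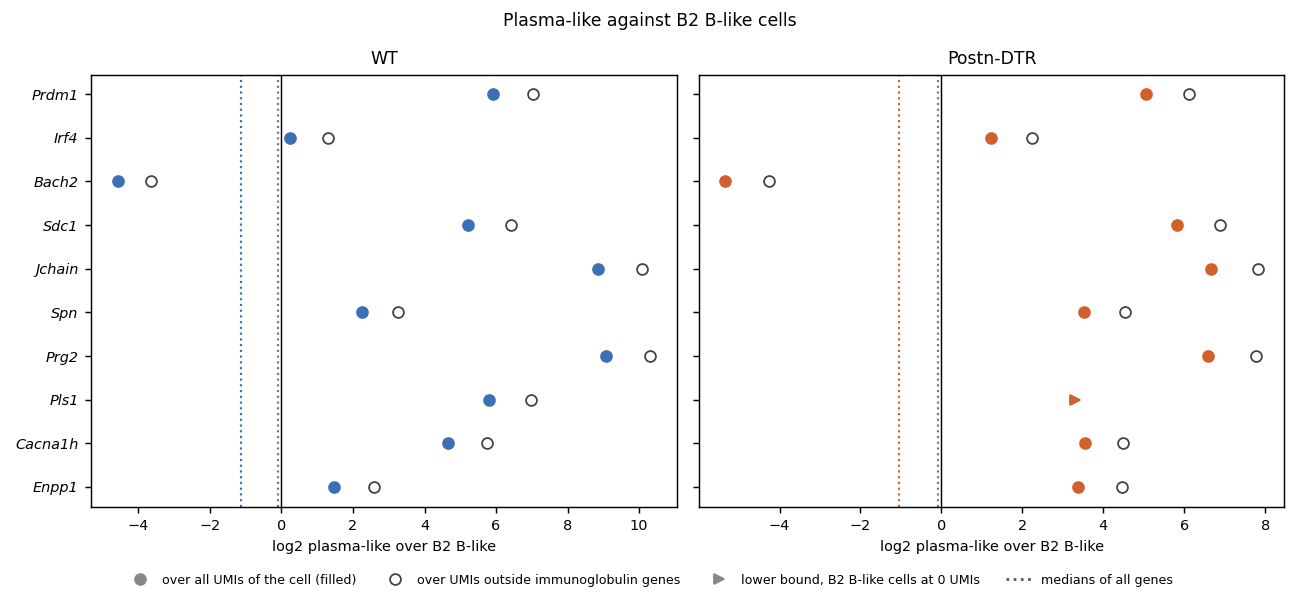
log2 ratio of each gene's level in plasma-like over B2 B-like cells in WT (left) and *Postn*-DTR (right), over all UMIs of a cell (filled) and over UMIs outside immunoglobulin genes (open). Dotted lines are the medians of all genes on both scales. 8 genes in WT and 9 in *Postn*-DTR lie at 1 or above on the first scale, *Bach2* lies at -4.57 and -5.34, and the triangle is a lower bound for *Pls1*, which had no UMI in B2 B-like cells of *Postn*-DTR.

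*Jchain* encodes the chain that joins IgM and IgA into polymers. *Prg2* encodes the major basic protein first known from eosinophil granules, and *Pls1* encodes plastin-1, which bundles actin filaments. *Jchain* (ENSMUSG00000067149, chromosome 5, 88519809 to 88527891) and *Pls1* (ENSMUSG00000049493, chromosome 9, 95752642 to 95845311) were the genes that differed between switched and IgM cells in both libraries (below), and *Bach2* was the gene that ran against the others. Their 250 bases upstream of the transcription start given by RefSeq for GRCm38.p6 are shown for that reason, 5′ to 3′ on the strand of the gene, in lower case with a match to a searched motif in capitals. The windows are chr5:88527898-88528147 (minus strand) for *Jchain*, chr9:95845280-95845529 (minus strand) for *Pls1* and chr4:32417185-32417434 (plus strand), which lies inside the annotated span of the gene, for *Bach2*.
Jchain: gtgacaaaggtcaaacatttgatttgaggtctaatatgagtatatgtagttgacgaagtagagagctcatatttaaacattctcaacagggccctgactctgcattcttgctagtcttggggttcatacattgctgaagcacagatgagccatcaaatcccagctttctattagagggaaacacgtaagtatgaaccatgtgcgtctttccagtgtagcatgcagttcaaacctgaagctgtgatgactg
Pls1: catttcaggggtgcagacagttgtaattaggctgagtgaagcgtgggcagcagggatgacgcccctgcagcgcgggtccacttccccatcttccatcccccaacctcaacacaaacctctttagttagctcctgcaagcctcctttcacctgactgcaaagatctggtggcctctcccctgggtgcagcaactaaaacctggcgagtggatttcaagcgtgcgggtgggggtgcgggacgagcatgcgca
Bach2: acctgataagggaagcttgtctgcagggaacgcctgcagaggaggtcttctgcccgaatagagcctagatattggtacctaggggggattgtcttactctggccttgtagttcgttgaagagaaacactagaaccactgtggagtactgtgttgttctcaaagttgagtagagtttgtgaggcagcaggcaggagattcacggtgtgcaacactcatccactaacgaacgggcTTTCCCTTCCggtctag

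RefSeq gave an upstream window for 8 of the 10 genes, not for *Prg2* and *Cacna1h*. Each window was searched on both strands for TATAAA (in 13% of 27025 windows of all genes), the octamer ATGCAAAT (1.61%), the ETS-IRF composite (GGAA, then any 2 bases, then GAAA, 2.38%), the interferon response core (GAAA, then any 2 bases, then GAAA, 3.04%), the AP-1 site TGAGTCA or TGACTCA (4.43%) and the E-box CAGCTG (12.8%). The composite and the interferon response core can overlap. *Bach2* held the composite on the reverse strand (TTTCCCTTCC, positions -17 to -8 from the start), *Spn* held it as GGAAAGGAAA at -240 to -231, and *Irf4* held TATAAA at -26 to -21. *Jchain*, *Pls1*, *Prdm1*, *Sdc1* and *Enpp1* held none of these letters in the window, which says nothing about the factors.

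*Jchain* was detected in nearly every plasma-like cell. The level in IgM plasma-like cells of WT was 485 (10th percentile of cells 209, median 481, 90th percentile 760) and that in *Postn*-DTR 278 (82.1, 263 and 485). Switched plasma-like cells had 242 and 101 and cycling plasma-like cells 172 and 129. B2 B-like cells had 0.926 in WT and 2.39 in *Postn*-DTR and B1 B-like cells 0.689 and 1.82. T-like cells, which do not make the chain, had 0.965 and 2.18 with a median of 4650 and 4300 UMIs a cell. After thinning, 15.1% of B2 B-like, 10.8% of B1 B-like and 14.4% of T-like cells of WT held a *Jchain* UMI, and 30.5%, 21.6% and 27.2% of *Postn*-DTR (27.9%, 30% and 26.9%, and 46.5%, 46.9% and 51.1%, without thinning). *Jchain* in B2 and B1 B-like cells was thus at the level of background in both libraries. Cycling B-like cells stood higher, at 8.47 (WT) and 9.37 (*Postn*-DTR). The *Postn*-DTR level rested mostly on 1 cell, with 431 of the 502 UMIs. The WT level did not rest on 1 cell alone. Its top cell held 1381 UMIs out of 2934, and the others lay in further cells. Whether the WT level was above background without its top cell was not tested.

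*Prg2* (ENSMUSG00000027073, chromosome 2, 84980461 to 84983632) had at most 4 UMIs in B2 and in B1 B-like cells of either library. Its level was 2.97 in IgM, 1.34 in switched and 0.470 in cycling plasma-like cells of WT, and 0.656, 0.504 and 0.335 in *Postn*-DTR. The log2 ratio of plasma-like to B2 B-like cells on summed UMIs was 8.90 (7.55 to 10.78) in WT, from 4 UMIs in B2 B-like cells, and 6.80 (4.32 to 12.11) in *Postn*-DTR, from 1. Of 6 eosinophil markers measured, *Siglecf*, *Ear1* and *Ear6* were at 0 in every plasma-like class, at most 3 had a UMI, and the 6 summed to 0.354 to 0.668 UMIs per 10000. *Pls1* had a level of 0.415, 0.0775 and 0.128 in IgM, switched and cycling plasma-like cells of WT and 0.210, 0.0284 and 0.0395 in *Postn*-DTR. No *Pls1* UMI was seen in B2 or B1 B-like cells of *Postn*-DTR, so plasma-like cells were at least 9.93-fold above B2 B-like cells there, with 3 counts over the class as the limit, and 55.8-fold above them in WT, from 4 UMIs (log2 on summed UMIs 4.59 to 7.83).

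Of the wider programmes, lists of plasma cell and of B cell genes were counted in the same way, some of which also served to name the clusters. Of 23 plasma cell genes tested, 13 were called higher in plasma-like than in B2 B-like cells of WT and 3 lower, and 14 and 3 in *Postn*-DTR. Over all genes 9.51% (WT) and 10.7% (*Postn*-DTR) were called higher. The median log2 ratios of the plasma cell genes were 2.59 and 2.26. *Tnfrsf17*, the receptor BCMA for survival factors, had 1.43 against 0.00352 in WT and 0.630 against 0.00403 in *Postn*-DTR, from 3 and 1 UMIs in B2 B-like cells (log2 on summed UMIs 7.01 to 10.83 and 4.31 to 12.09). *Derl3*, of the degradation pathway of the endoplasmic reticulum, had 4.53 against 0.0697 and 6.13 against 0.0969. At the other end were *Cd38*, an ectoenzyme of the cell surface, with 0.204 against 1.86 and 0.244 against 2.33, lower also without immunoglobulin genes, and *Cav1* (caveolin-1), which had too few UMIs to be tested. All 21 B cell genes tested were called lower in both libraries, where 55.5% and 51.8% of all genes were lower, from *Fcer2a* (CD23; 0.0431 against 4.83 in WT, 0.00229 against 2.25 in *Postn*-DTR) and *Ighd* (0.0662 against 5.53, 0.0158 against 6.23) to *Foxo1* (0.351 against 1.80, 0.240 against 1.76) and *Spi1* (0.258 against 1.43, 0.262 against 1.47), which encode transcription factors.

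Between B1 and B2 B-like cells, 6 of the 10 genes had enough UMIs. *Prdm1* and *Spn* were called higher in both libraries, where 4.78% of all genes were higher in WT and 4.02% in *Postn*-DTR. *Bach2* was called lower in WT (2.72-fold, against 3.95% of all genes) and was 1.94-fold lower in *Postn*-DTR (2.98% of all genes). *Irf4*, *Jchain* and *Enpp1* were within 2-fold in both. Of the plasma cell list, 4 of 20 genes were higher in WT (*Mzb1*, *Zbtb20*, *Cd9* and *Fkbp11*) and 2 lower (*Cd93* and *Cxcr4*), and in *Postn*-DTR 4 of 18 were higher (*Mzb1*, *Zbtb20*, *Cd9* and *Atf6*) and 0 lower. *Mzb1* encodes a chaperone of IgM assembly and *Zbtb20* a transcription factor of plasma cells, while *Cd9* was also a marker that named the B1 B-like cluster. Of the B cell list 8 of 22 genes were lower in WT and 5 of 21 in *Postn*-DTR, and 1 was higher in each.

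The comparison of switched with IgM plasma-like cells asks whether these genes follow the isotype. 23 of 610 WT and 49 of 2190 *Postn*-DTR plasma-like cells had between 10% and 90% of their constant-region UMIs from switched regions. With at least 90% of at least 10 UMIs required, 74 of 91 switched cells of WT and 257 of 284 of *Postn*-DTR were left. Of IgM cells 469 of 473 and 1701 of 1726 were left. The switched class of WT lost the largest part of its cells. *Jchain* and *Pls1* were still called in both libraries. *Pls1* was 5.36-fold lower in switched cells of WT and 7.39-fold lower in those of *Postn*-DTR. *Jchain* was 2-fold lower in WT, at the threshold, and 2.75-fold lower in *Postn*-DTR. *Prg2* was 2.22-fold lower in WT but only 1.30-fold lower in *Postn*-DTR, and *Bach2* was 5.01-fold lower in *Postn*-DTR, from 7 UMIs in switched cells. None of the 10 genes was called higher. Over all genes, 5.59% were called lower and 5.49% higher in WT, and 8.19% and 3.67% in *Postn*-DTR. The median log2 ratio of the 10 genes was -0.27 and -0.51, against 0.01 and -0.01 over all genes. In WT the *Jchain* call was lost on summed UMIs (log2 -0.80) and with immunoglobulin genes left out of the total (-0.96), and the *Prg2* call on summed UMIs (-0.88). The 2 classes also lay in different clusters. Cluster 15 held 76.9% (WT) and 93.7% (*Postn*-DTR) of switched cells, and cluster 3 held 80.5% and 54.3% of IgM cells. IgM cells of cluster 4 had *Prg2* at 1.08 and 0.413, below the 1.34 and 0.504 of switched cells. Their *Pls1* (0.213 and 0.0791) and *Jchain* (426 and 281) were above those of switched cells. The part of the cluster was not tested.

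Divided by single constant regions, the switched cells were not alike. In WT the 16 *Igha* cells had a *Jchain* level of 526, above the 485 of the *Ighm* cells, whereas the 70 *Ighg3* cells had 183. In *Postn*-DTR the level was 278 in *Ighm*, 139 in 53 *Ighg1*, 126 in 11 *Ighg2b* and 83.3 in 207 *Ighg3* cells. The IgG cells lay below the *Ighm* cells in both libraries, and the *Igha* cells of WT did not.

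*Prg2* followed the same order in WT, with 2.97 in *Ighm*, 3.86 in *Igha* and 0.813 in *Ighg3* cells. In *Postn*-DTR it was highest in *Ighg1* cells (1.29), above *Ighm* (0.656), *Ighg3* (0.264) and *Ighg2b* cells (0.0940). *Pls1* was highest in *Ighm* cells of both libraries, at 0.415 and 0.210. It was 0.193 in *Igha* and 0.0522 in *Ighg3* cells of WT and 0.0818, 0.0361 and 0.0146 in *Ighg1*, *Ighg2b* and *Ighg3* cells of *Postn*-DTR. *Sdc1*, in contrast, lay between 1.63 and 1.91 in all 3 groups of WT and between 1.23 and 1.70 in the 4 of *Postn*-DTR.

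**Figure D3:**
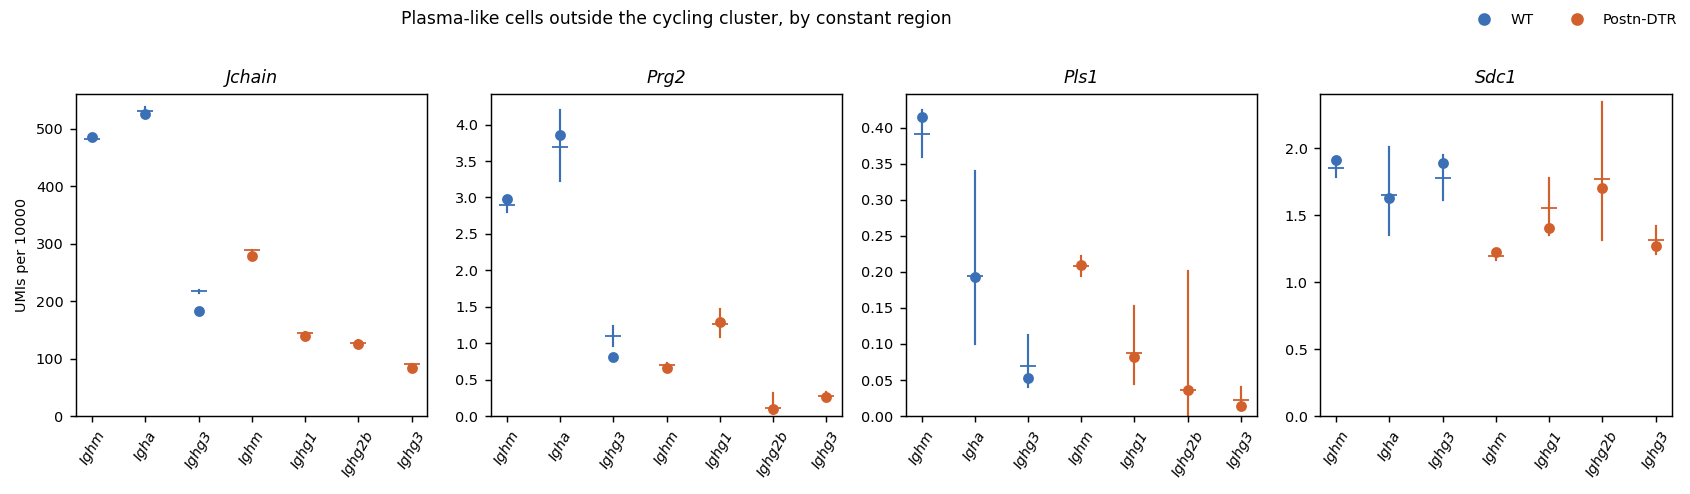
Level of *Jchain*, *Prg2*, *Pls1* and *Sdc1* (UMIs per 10000) in plasma-like cells outside the cycling cluster by the constant region with most UMIs, for groups of at least 10 cells. Dots are means over cells, ticks and bars are summed UMIs with 95% counting intervals. In WT (blue) *Jchain* stands at 485, 526 and 183 in *Ighm*, *Igha* and *Ighg3* cells, and *Sdc1* shows no such step.

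In cycling plasma-like cells immunoglobulin genes took a smaller part of the UMIs, with a median of 26.5% in WT and 27.5% in *Postn*-DTR. The median log2 ratio of all genes over the other plasma-like cells was 0.64 in WT and 0.48 in *Postn*-DTR, and -0.03 and -0.05 with immunoglobulin genes left out. *Pls1* was called lower in both libraries (2.82-fold and 4.66-fold). *Jchain* (2.59-fold) and *Prg2* (5.76-fold) were called lower in WT and *Bach2* (2.47-fold, 11 UMIs) in *Postn*-DTR, and none was higher. The *Prg2* call was lost when cycling was called by cell (log2 -0.96), and the *Bach2* call on summed UMIs (-0.98) and with clusters made by scanpy (-0.44). The median log2 ratio of the 10 genes was -0.43 and -0.41. Of all genes, 4.73% were lower and 30.8% higher in WT and 5.39% and 21.2% in *Postn*-DTR. With immunoglobulin genes left out, *Jchain* and *Prg2* were at least 2-fold lower in both libraries (log2 -1.97 and -3.00 in WT, -1.42 and -1.43 in *Postn*-DTR). *Sdc1* (-1.11), *Cacna1h* (-1.36) and *Enpp1* (-1.04) were then called lower in WT as well, but not in *Postn*-DTR. The regulators had no direction that held on both scales in WT. *Irf4* had log2 ratios of 0.34 and 0.12 on all UMIs and -0.34 and -0.41 without immunoglobulin genes, in WT and *Postn*-DTR, and *Prdm1* of WT had 0.33 and -0.38. *Bach2* of WT (0.24 and -0.31) and *Sdc1* (0.01 and -0.52) and *Spn* (0.41 and -0.06) of *Postn*-DTR changed sign likewise.

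The comparison of the study's design, *Postn*-DTR against WT, was made within each class. It found *Enpp1* higher and *Prg2* lower in IgM plasma-like cells of *Postn*-DTR, and *Prdm1* and *Irf4* nearly equal. Of the 10 genes, 1 was called higher and 2 lower in this class, against 5.8% and 6.92% of all genes. All 10 had enough UMIs, and the median log2 ratio was -0.26, against 0.05 over all genes.

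*Enpp1* went from 0.591 in IgM plasma-like cells of WT to 1.58 in those of *Postn*-DTR, a 2.67-fold difference, with a log2 ratio on summed UMIs of 1.55 (1.44 to 1.67). The median cell had 0.388 in WT and 1.17 in *Postn*-DTR. After thinning, which left out 6 and 36 cells, 10.9% of the WT cells (8.24 to 14.1) and 23.9% of the *Postn*-DTR cells (21.9 to 26.0) held an *Enpp1* UMI, against 67.2% and 85.1% without thinning and 2.17% and 2.61% of thinned T-like cells. *Enpp1* was also 2.53-fold higher in cycling plasma-like cells and 1.95-fold higher in switched ones, the latter just under the threshold (log2 on summed UMIs 1.46, 1.17 to 1.76). It was not called in B2 or B1 B-like cells, where the level was 0.204 and 0.141, and 0.148 and 0.200.

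*Prg2* went from 2.97 to 0.656 in IgM plasma-like cells, 4.53-fold lower in *Postn*-DTR. Its log2 ratio on summed UMIs was -2.04 (-2.11 to -1.97). The thinned share of WT was 32.3% (28.1 to 36.8) and that of *Postn*-DTR 10.4% (9 to 12), against 80.3% and 43.2% without thinning. The 90th percentile of cells was 7.20 in WT and 1.79 in *Postn*-DTR. *Prg2* was 2.66-fold lower in switched plasma-like cells as well. In cycling ones its log2 ratio was -0.49, and 1.33 with clusters made by scanpy.

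*Bach2* was 2.19-fold lower in IgM plasma-like cells of *Postn*-DTR (0.0861 and 0.0393, 103 and 166 UMIs), a call that was lost on summed UMIs (log2 -0.89, -1.26 to -0.52). *Pls1* (0.415 and 0.210, 1.98-fold), *Jchain* (485 and 278, 1.74-fold) and *Sdc1* (1.91 and 1.23, 1.56-fold) were lower in *Postn*-DTR but under 2-fold. *Prdm1* differed by a log2 ratio of 0.11 and *Irf4* by 0.22.

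The IgM plasma-like cells came from different clusters in the libraries. In WT 80.5% were in cluster 3 and 13.7% in cluster 4, and in *Postn*-DTR 54.3% and 39.0%. *Prg2*, *Jchain* and *Pls1* were among the leading genes of cluster 3, although none was used in clustering. Within cluster 3 alone (381 and 937 cells) *Enpp1* was 3.09-fold higher and *Prg2* 3.97-fold lower in *Postn*-DTR, and within cluster 4 (65 and 673 cells) 2.56-fold higher and 2.62-fold lower. *Jchain* was 1.75-fold and 1.51-fold lower and *Sdc1* 1.63-fold and 1.36-fold lower within these clusters. *Pls1* was 1.55-fold lower in cluster 3 and 2.70-fold lower in cluster 4. *Prdm1* turned from a log2 ratio of 0.23 in cluster 3 to -0.50 in cluster 4. *Bach2* was 1.40-fold lower in cluster 3 and had too few UMIs in cluster 4. In the shallow cluster 22, with 23 and 103 of these cells and a median of 3209 UMIs, *Enpp1* was 1.70-fold higher and *Prg2* 3.30-fold lower.

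Other features of the class moved with the library. The 9 plasma-like markers summed to 64.6 in WT and 99.4 in *Postn*-DTR, the 6 B-like markers to 10.4 and 11.7, the 7 T-like markers to 0.789 and 0.202, the 8 macrophage-like markers to 0.558 and 0.385 and the 9 neutrophil-like markers to 0.0842 and 0.570, with a UMI of every marker in both. Median depth was 28001 and 23189 UMIs. Their part in the differences was not tested. Of 23 genes of the plasma cell list, *Fkbp11* (1.78 and 3.60), which encodes a folding enzyme, was called higher in *Postn*-DTR, and *Tnfrsf17* (1.64 and 0.719), *Cd28* (0.764 and 0.228), a co-stimulatory receptor, and *Cd93* (0.118 and 0.0346) were called lower. Of 20 genes of the B cell list 9 were lower and 1 was higher (*Bcl6*, 0.0135 and 0.0475). Over all genes tested in this class, 5.8% were called higher and 6.92% lower.

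In switched plasma-like cells 9 genes could be tested and 3 were called lower in *Postn*-DTR, *Jchain* (242 and 101, 2.39-fold), *Prg2* (1.34 and 0.504, 2.66-fold) and *Pls1* (0.0775 and 0.0284, 2.73-fold, 30 and 25 UMIs). None was called higher. Of all genes 7.7% were lower and 6.04% higher. The constant regions behind this class differed, with *Igha* cells in WT and *Ighg1* cells in *Postn*-DTR. Within *Ighg3* cells, which both libraries held, *Jchain* was 183 and 83.3, *Prg2* 0.813 and 0.264 and *Pls1* 0.0522 and 0.0146. In cycling plasma-like cells *Enpp1* was called higher and *Pls1* lower (0.128 and 0.0395, 3.24-fold, 25 and 30 UMIs), against 3.64% and 5.14% of all genes. With clusters made by scanpy the cycling class of WT held 147 cells in place of 46, and there *Pls1* had a log2 ratio of 0.24, while *Enpp1* was still called higher. The T-like markers summed to 0.652 and 0.211 in the switched and 0.534 and 0.0865 in the cycling class, and the neutrophil-like markers to 0.170 and 0.888 and to 0.0451 and 2.18, with *Csf3r* at 0 in both classes of WT and *S100a8*, *Cxcr2*, *Retnlg* and *Ltf* at 0 in its cycling class. Their part in these differences was not tested.

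**Figure D4:**
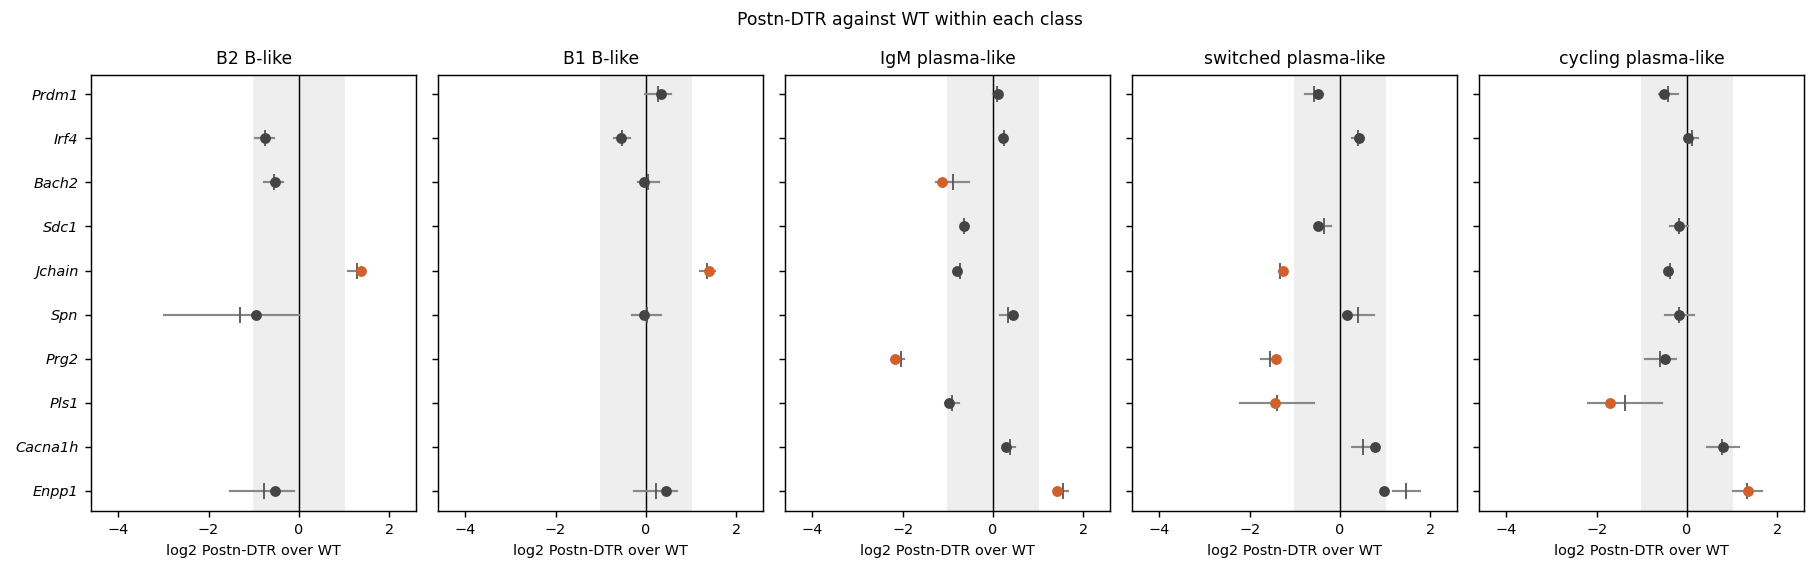
log2 ratio of *Postn*-DTR over WT for each gene with at least 50 UMIs in 5 classes. Dots are ratios of means over cells (orange where at least 2-fold), ticks and bars are ratios of summed UMIs with 95% counting intervals, and the grey band is less than 2-fold. *Enpp1* lies at 1.42, 0.96 and 1.34 in IgM, switched and cycling plasma-like cells, *Prg2* at -2.18, -1.41 and -0.49, and *Jchain* at 1.37 and 1.40 in B2 and B1 B-like cells.

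In B2 B-like cells 5 genes could be tested and in B1 B-like cells 6. *Jchain* was called higher in *Postn*-DTR in both (2.58-fold and 2.64-fold), where 2.03% and 2.19% of all genes were higher and 2.87% and 2.55% lower, and no gene of the list was called lower. The call in B1 B-like cells was lost with clusters made by scanpy (log2 0.42). T-like cells had 0.965 and 2.18, so no difference beyond background was seen. *Irf4* was 1.68-fold lower in B2 B-like and 1.46-fold lower in B1 B-like cells of *Postn*-DTR, with counting intervals that did not hold 0 on the log2 scale (-0.98 to -0.56 and -0.70 to -0.36). *Prdm1* in B1 B-like cells was 1.26-fold higher in *Postn*-DTR (log2 on summed UMIs 0.27, -0.01 to 0.55), and *Bach2* and *Spn* there had log2 ratios of -0.05 and -0.04.

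Genes with a like pattern were sought over 27 points, each a named class in 1 library with at least 20 cells, among 11698 genes, by Pearson's r of log2 levels with 0.1 added. The points share libraries, depth and the contrast of plasma-like with other cells, so r is only a description. *Mfsd4a* and *Txndc11* were nearest to both *Prdm1* (r = 0.84 for each) and *Enpp1* (0.90 for each). *Dennd5b* (0.95) and *Gm30211* (0.94) were nearest to *Irf4*, *Bhlha15* (0.95) and *Edem2* (0.95) to *Sdc1*, *Derl3* (0.93) and *Tnfrsf17* (0.92) to *Jchain*, and *Derl3* (0.98) and *Pycr1* (0.97) to *Cacna1h*. *Tnfrsf17* (0.95) and *Fut1* (0.94) were nearest to *Prg2*, and *Kcnmb4os2* (0.94) and *Fut1* (0.93) to *Pls1*. *Tut4* (0.92) and *Kmt2a* (0.90) were nearest to *Bach2*, and *Inpp5b* (0.81) and *Nkg7* (0.77) to *Spn*. Among the 10 genes themselves, the highest r was 0.92, of *Sdc1* with *Cacna1h*. *Jchain* and *Prg2* had 0.91 and *Prg2* and *Pls1* 0.90, while *Bach2* had a negative r with every other gene but *Spn* (0.10).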

How the data were processed

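Each group, WT and *Postn*-DTR, is 1 droplet library of pooled mice. The labels name a 5′ kit and the study's methods a 3′ kit. Reads were aligned to mm10, with Cell Ranger 6.0.0 per the submitters' processing notes. The deposited values are the natural log of 1 plus UMIs per 10000, made by the authors and given to 3 decimals. UMIs were recovered from each cell's smallest step (99.9644% and 99.9085% of values whole within 0.1).

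Cells with 200 to 7500 genes and at most 25% mitochondrial UMIs were clustered in Seurat 5.3.0 (R 4.3.3, sctransform 0.4.2) on 3000 variable features, without the 10 genes and V, D and J segments, with 30 principal components and resolution 0.8. Rules for naming clusters were set after the clusters were seen. Scrublet (scanpy 1.11.5, threshold 0.25 set after seeing the scores) marked 136 and 106 cells as doublets, which were kept. The genes and lists were chosen with earlier results of these data known. Named besides the 10 genes were the 2 genes nearest to each by r, the 2 highest and 2 lowest of each list over B2 B-like cells, and a few called list genes picked after their values were seen. Calculations used Python 3.11.15, numpy 2.4.6 and scipy 1.17.1 and were tested on simulated counts. Alternatives were other totals, summed UMIs, other minimums, clusterings, doublets left out, the top cell left out, other divisions of isotype and cycling, and other thinning depths.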

Additional observations from a re-analysis of the deposited data

Results flagged for a closer look

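For 4 genes the *Postn*-DTR over WT ratio of summed UMIs had counting intervals on opposite sides of 0 in different classes. The difference between classes was not tested, since each group is 1 library. *Prdm1* had a log2 ratio of 0.094 (0.0061 to 0.18) in IgM, -0.58 in switched and -0.41 in cycling plasma-like cells. As ratios of means over cells, the cycling values of *Prdm1* and *Jchain* changed sign with clusters made by scanpy. *Irf4* had -0.76 in B2 and -0.53 in B1 B-like cells, but 0.24 in IgM and 0.39 in switched plasma-like cells. *Jchain* had 1.28 in B2 and 1.36 in B1 B-like cells, where it was at background, and -0.74, -1.33 and -0.37 in IgM, switched and cycling plasma-like cells. *Enpp1* had -0.78 in B2 B-like cells (20 UMIs in *Postn*-DTR) and 1.55, 1.46 and 1.33 in IgM, switched and cycling plasma-like cells.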

How the results depend on the processing

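Counts of genes called in both libraries were 8 for plasma-like over B2 B-like cells, 2 for B1 over B2 B-like, 2 for switched over IgM and 1 for cycling over other plasma-like cells, and 10 calls were made between *Postn*-DTR and WT. With no minimum of UMIs the B1 count became 4 and the *Postn*-DTR count 16, and with a minimum of 200 the B1 count became 0, because fewer genes were tested. The switched count became 1 without immunoglobulin genes, without antigen receptor, mitochondrial and ribosomal protein genes, on summed UMIs, with the 10 genes kept in clustering and without the shallow plasma-like cluster, each time through loss of *Jchain*. With scanpy and Leiden clusters *Jchain* was lost too (WT log2 -0.94), and the count stayed at 2 through *Bach2*. The cycling count became 3 without immunoglobulin genes, without antigen receptor, mitochondrial and ribosomal protein genes and without the top cell, and 2 without the shallow cluster, an alternative chosen after seeing the data. *Pls1* in cycling plasma-like cells reversed from a log2 ratio of -1.70 to 0.24 with scanpy and Leiden clusters, where the WT class held 147 instead of 46 cells. In that class the ratios of *Postn*-DTR over WT also changed sign for *Prdm1* (-0.51 to 0.69), *Sdc1* (-0.18 to 1.12), *Jchain* (-0.42 to 1.15), *Prg2* (-0.49 to 1.33) and *Spn* (-0.17 to 0.23), and *Sdc1*, *Jchain*, *Prg2* and *Cacna1h* (0.80 to 2.11) became called higher. The same clusters turned *Prdm1* (0.33 to -0.84) and *Irf4* (0.34 to -0.51) in cycling over other plasma-like cells of WT and *Jchain* in B1 over B2 B-like cells of WT (-0.43 to 0.87), and ended the *Jchain* call between *Postn*-DTR and WT in B1 B-like cells (1.40 to 0.42). The cause was not tested. The count for plasma-like over B2 B-like cells stayed at 8 or 9 under all alternatives. Depth limited *Pls1*, *Prg2*, *Sdc1* and *Cacna1h* in B-like cells, where a few UMIs stand behind each level. No paired analysis was possible because each group is 1 library.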

Other observations

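Within the switched cells *Prdm1* was not at one level in *Postn*-DTR, with 0.331 in 53 *Ighg1* cells (54 UMIs) against 0.834 in 207 *Ighg3* cells (397 UMIs) and 1.18 in *Ighm* cells. *Irf4* in WT was 1.12 in 16 *Igha* cells (65 UMIs) against 2.13 in 70 *Ighg3* and 2.53 in *Ighm* cells. *Bach2* had no UMI in the 53 *Ighg1* cells and 6 in the 207 *Ighg3* cells of *Postn*-DTR. On summed UMIs the *Ighg1* interval reached 0.0268 and the *Ighg3* level was 0.0121, so no difference was seen between them. *Tnfrsf17* in switched plasma-like cells had a level of 0.630 in WT and 0.168 in *Postn*-DTR.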
